A study of Mus musculus with 22 samples.

Results

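The transcripts of 7 genes that encode vesicular and plasma-membrane glutamate transporters, or close relatives of them, were followed in the spinal cord of aging mice and of a mouse model of amyotrophic lateral sclerosis (ALS). The genes were picked by name, as the rows for Slc17a6, Slc17a7, Slc17a8, Slc1a1, Slc1a2, Slc1a3 and Slc1a4, from 21995 genes measured by RNA-seq of whole spinal cord. The aging comparison held 8 young mice of 3 to 4 months (Young) and 8 old mice of 18 to 24 months (Old). All 16 were wild-type C57BL/6 males, with libraries made by the Roche RNA KAPA Hyperprep kit. The ALS comparison held 3 mice of genotype G93a and 3 wild-type controls (WT_G93a_Control) on C57BL/6, all aged 5 to 6 months, with Illumina TruSeq libraries. The G93a mice carry a high-copy transgene for human SOD1 with the G93A mutation and were symptomatic. The controls carry no transgene. Each ALS group was of mixed sex, and the sex of a single library was not used here. Kit and experiment cannot be told apart, so G93a was compared only with its own controls and Old only with Young.

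Glutamate is the main excitatory transmitter of the spinal cord. The vesicular transporters VGLUT1 (Slc17a7), VGLUT2 (Slc17a6) and VGLUT3 (Slc17a8) load it into synaptic vesicles. VGLUT2 serves most intrinsic excitatory neurons of the cord, whereas much of the VGLUT1 there sits on terminals of sensory and descending neurons whose cell bodies lie elsewhere. No enzyme degrades glutamate in the synaptic cleft, so it is removed by sodium-driven uptake. GLT-1 (Slc1a2) and GLAST (Slc1a3) do this mainly in astrocytes, and EAAC1 (Slc1a1) mainly in neurons, where it also brings in cysteine. ASCT1 (Slc1a4) belongs to the same family by sequence but exchanges neutral amino acids such as serine and alanine, so it is a relative rather than a glutamate carrier.

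The total of expected counts per library was 5078092 to 9358055 in Young, 5664869 to 9145600 in Old, 10693060 to 13219797 in the controls and 9675610 to 11872431 in G93a. A level of 3 counts corresponded to 0.227 to 0.591 CPM (counts scaled to the size of the library) across libraries. Counts assigned to mouse Sod1, the endogenous counterpart of the transgene, were higher in the library group labelled G93a. They were 156 to 168 CPM in the controls and 296 to 335 CPM in G93a (log2 fold change 0.95, adjusted p = 0.000241). Reads were aligned to the mouse genome, and whether reads of the human transgene were counted at Sod1 was not tested. A rise of the endogenous gene was thus not shown. Genes that mark spinal neurons, astrocytes and motor neurons were present in every library. Markers of dorsal root ganglion neurons, which express vesicular glutamate transporters too, summed to at most 5.55 CPM over 8 genes, of which 1, Avil, was called higher in G93a. At a mean of 0.533 CPM in the controls and 3.27 CPM in G93a, Avil had enough counts to be tested only through G93a, so that call is not read as a result. One old library, Old F, stood apart, with a correlation of 0.978 with the rest of its group against 0.987 to 0.991 for the other Old libraries, and with 15.1% of its counts in its 10 most abundant genes. G93a B had the lowest such correlation among the G93a libraries, also 0.978. The libraries of a group are named A to H in the order of the columns, and p-values measure the spread between animals.

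Compared per transcript length, in FPKM (fragments scaled to transcript length and library size), Slc1a2 was by far the most abundant of the 7 in each group. Its level in Young was 234 ± 17.0 FPKM (mean ± SD, n = 8), followed by Slc17a6 at 44.9 ± 3.32, Slc1a3 at 31.2 ± 1.11, Slc1a1 at 26.6 ± 1.36 and Slc1a4 at 19.6 ± 1.52 FPKM. Slc17a7 and Slc17a8 were scarce, at 1.31 ± 0.25 and 0.31 ± 0.086 FPKM. No neighbours in this order overlapped in Young or in the controls. In Old the order was the same, but the libraries of Slc17a6 and Slc1a3, of Slc1a1 and Slc1a4, and of Slc17a7 and Slc17a8 overlapped in FPKM. In G93a the order itself differed: Slc1a3 (49.99 ± 8.39 FPKM, n = 3) stood above Slc17a6 (30.1 ± 12.7) and Slc1a4 (25.6 ± 1.75) above Slc1a1 (17.0 ± 2.33). In G93a the values of Slc17a6 overlapped those of both Slc1a3 and Slc1a4. Slc17a6 made up 94.2% to 98.7% of the summed FPKM of the 3 vesicular transporters in each of the 22 libraries. The vesicular glutamate transporter RNA of the cord was thus nearly all VGLUT2 RNA in every group.

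**Figure D1:**
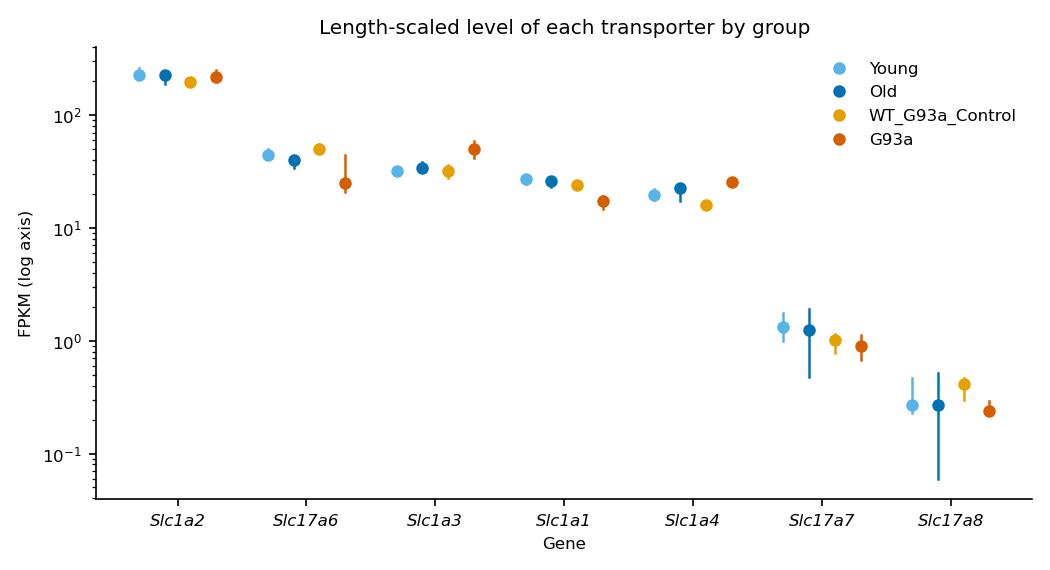
FPKM on a log axis for the 7 genes, with points at the group median and lines from the lowest to the highest library (Young and Old n = 8, WT_G93a_Control and G93a n = 3). Slc1a2 lies above all others, with group medians of 196 to 227 FPKM, Slc17a7 and Slc17a8 lie lowest, and Slc1a3 stands above Slc17a6 by its median in G93a only.

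The sequences upstream of the 4 genes that changed in G93a (described below with their values) are shown, since they differ in base composition and in the short motifs they hold. All are from RefSeq on GRCm38.p6, whose table held all 7 genes, and run 5′ to 3′ up to the base before the transcription start. For Slc1a1 the run stops at the start of the gene in GENCODE M21, which lies 86 bases before the RefSeq start. Capitals mark matches, on either strand, to any of 5 motifs. The GC box was searched as GGGCGG. The CAAT box was searched as CCAAT, and the TATA box as TATAAA. For AP-1 the letters were TGANTCA. For the composite site of C/EBP and ATF factors they were TGATGNAA. None of the matches shown overlaps one of another motif. The motifs were searched in the 250 bases before and 50 after each start.
Slc17a6 (chr7:51621580-51621829, plus strand): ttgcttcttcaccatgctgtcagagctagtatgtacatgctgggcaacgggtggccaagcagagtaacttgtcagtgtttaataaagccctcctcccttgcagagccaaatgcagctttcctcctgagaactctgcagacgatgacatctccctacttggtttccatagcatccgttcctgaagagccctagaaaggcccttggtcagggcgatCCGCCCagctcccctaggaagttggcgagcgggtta
Slc1a3 (chr15:8710808-8711057, minus strand): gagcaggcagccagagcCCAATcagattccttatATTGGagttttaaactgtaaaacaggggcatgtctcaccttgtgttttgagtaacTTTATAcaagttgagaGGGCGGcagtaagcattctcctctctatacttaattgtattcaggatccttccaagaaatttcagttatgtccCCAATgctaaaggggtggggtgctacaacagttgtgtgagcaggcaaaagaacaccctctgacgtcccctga
Slc1a1 (chr19:28834885-28835048, plus strand): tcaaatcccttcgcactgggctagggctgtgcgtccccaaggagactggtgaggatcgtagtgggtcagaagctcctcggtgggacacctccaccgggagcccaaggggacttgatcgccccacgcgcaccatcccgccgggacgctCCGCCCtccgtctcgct
Slc1a4 (chr11:20332714-20332963, minus strand): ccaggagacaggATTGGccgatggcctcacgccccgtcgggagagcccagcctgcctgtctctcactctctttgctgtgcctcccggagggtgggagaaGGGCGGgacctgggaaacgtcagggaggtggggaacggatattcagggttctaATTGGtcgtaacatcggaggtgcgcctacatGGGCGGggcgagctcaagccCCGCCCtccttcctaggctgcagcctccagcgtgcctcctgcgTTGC
Slc1a4 site (chr11:20332702-20332725, minus strand): ctcctgcgTTGCATCAtctccagc
The last line is the stretch that straddles the Slc1a4 start, with the match to the composite site, on the opposite strand, in capitals. Of 32851 mouse promoters of the same length, 35.7% held the GC box, 37.4% the CAAT box, 13.6% the TATA box, 7.81% the AP-1 site and 3.97% the composite site. Each of the 4 genes had at least 1 GC box. Slc1a4 had 3 of them and 2 CAAT boxes, and was the only member with the composite site. Slc1a3 had 3 CAAT boxes and the only TATA box letters among the members. Slc1a1 had 14 CpG dinucleotides in the 164 bases shown and Slc1a4 had 16 in 250, whereas Slc17a6 had 7 and Slc1a3 had 2 in 250 (the median over all promoters was 6 in 250). Slc17a7 held 3 GC boxes. No match was present in the windows of Slc17a8 and Slc1a2, but the RefSeq start of Slc1a2 lies 47779 bases inside the GENCODE gene. These matches are letters in a window and not measured binding sites.

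In aging, 3 transporter transcripts changed by small amounts: Slc17a6 fell, and Slc1a3 and Slc1a4 rose. Slc1a2, Slc1a1 and Slc17a7 did not pass the test, and Slc17a8 was too low to be tested. The share of all 13647 genes called was 13.5% higher and 12.9% lower in Old, against 2 higher and 1 lower of the 6 members tested. None of the 6 had a log2 fold change past 1, a size that 2.22% of all genes reached with an adjusted p under 0.05. Young and Old overlapped in each member.

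Slc17a6, the VGLUT2 gene (chr7:51622006-51671119, GRCm38, plus strand), ranged from 175 to 210.5 CPM in Young, with a median of 194, and from 151 to 194 CPM in Old, with a median of 171. Of the 8 Old libraries, 6 lay below the lowest Young library, and Old F was the highest of its group. The mean moved from 194 ± 13.4 to 171 ± 13.04 CPM, a log2 fold change of -0.18 (SE 0.051, adjusted p = 0.0108, edgeR quasi-likelihood test). An exact permutation test over the 16 libraries gave a 2-sided p of 0.00544. Without Old F the log2 fold change was -0.21 (adjusted p = 0.00173). When all 22 libraries were fitted together, with a shared estimate of the spread, the value was still -0.18 but the adjusted p was 0.177. Summed CPM of 10 neuron markers ran from 7331 to 8142 in Young and from 6590 to 8433 in Old, again with Old F highest, and 4 of the 10 were called lower and 1 higher. Per 1000 CPM of those markers, Slc17a6 measured 23.4 to 26.7 in Young and 19.9 to 25.8 in Old, ranges that overlap. The part of neuronal content in the fall of Slc17a6 was not tested. In RNA from whole tissue, fewer cells of a type and less RNA per cell cannot be told apart.

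Slc17a7, the VGLUT1 gene (chr7:45163949-45176142, plus strand), had 10 to 47 counts per library in the aging samples. Its level was 3.07 to 5.23 CPM in Young and 1.54 to 5.01 CPM in Old, with medians of 4.01 and 3.65. The groups overlapped widely, and Old F was the lowest. The log2 fold change was -0.16 (95% interval -0.57 to 0.24, adjusted p = 0.575). That value rested on single libraries, at -0.061 without Old F and -0.27 without Old D, and it was about -0.10 without Old A or Young G. Slc17a8, the VGLUT3 gene (chr10:89574020-89621253, minus strand), had 2 to 20 counts per library. It measured 1.11 to 2.09 CPM in Young and 0.308 to 2.35 CPM in Old, with medians of 1.28 and 1.07. The lowest value, in Old F, was under the level of 3 counts for that library. Slc17a8 did not pass the filter on low counts in aging and was not tested.

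Slc1a2, the GLT-1 gene (chr2:102658659-102790784, plus strand), ranged from 2593 to 3245 CPM in Young (median 2806) and from 2369 to 3195 CPM in Old (median 2685). The groups overlapped, and 7 of 8 Old libraries lay below the Young median, all except Old F. The log2 fold change was -0.076 (95% interval -0.19 to 0.038, adjusted p = 0.332), an interval of -12.4% to 2.7% in the level. Without Old F the value was -0.11 (adjusted p = 0.0731). Slc1a1, the EAAC1 gene (chr19:28835049-28913960, plus strand), measured 99.5 to 112 CPM in Young and 95.3 to 108 CPM in Old, with overlap (medians 104 and 99.8). Its log2 fold change was -0.043 (95% interval -0.12 to 0.037, adjusted p = 0.447).

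Slc1a3, the GLAST gene (chr15:8634124-8710764, minus strand), was held in a narrow band of 131 to 136 CPM in Young, with a median of 134. In Old it ran from 133 to 189 CPM, with a median of 147. Of the 8 Old libraries, 6 lay above the highest Young library, and Old F was the highest of all. The mean moved from 133 ± 2.38 to 150.2 ± 17.6 CPM (log2 fold change 0.17, SE 0.055, adjusted p = 0.0231; exact permutation p = 0.00233, 2-sided). Without Old F the log2 fold change was 0.12 (adjusted p = 0.0245). The call was lost in the joint fit of 22 libraries (0.17, adjusted p = 0.0767) and with limma on log2(FPKM + 1) values (0.15, adjusted p = 0.0603). Slc1a4, the ASCT1 gene (chr11:20302180-20332713, minus strand), ranged from 73.8 to 89.3 CPM in Young (median 80.5) and from 78.8 to 97.2 CPM in Old (median 91.4). Here 5 Old libraries lay above the highest Young library, and Old F was the lowest of its group. The log2 fold change was 0.16 (SE 0.051, adjusted p = 0.0203; exact permutation p = 0.00917), and 0.19 without Old F (adjusted p = 0.00417). With limma on log2(FPKM + 1) it was 0.15 (adjusted p = 0.171). In CPM, Old F thus held the highest Slc1a3, Slc1a2 and Slc17a6 of the old mice and the lowest Slc1a4, Slc17a7 and Slc17a8. In FPKM, Old F was below Old A for Slc17a6 (40.3 against 41.2) and below Old E for Slc1a2 (235 against 239). The astrocyte markers, 9 genes, summed to 5291 to 5969 CPM in Young and 5511 to 7014 CPM in Old, with Old F lowest. Of these 9, 3 were called higher, among them Gfap, an intermediate filament of reactive astrocytes (log2 fold change 0.69), and 2 lower. The higher sum in Old rested on Gfap. Without it, in a list trimmed after its values were seen, the other 8 summed to 3549 to 3805 CPM in Young and 3512 to 3750 CPM in Old. Microglia and macrophage markers, 8 genes, summed to 329 to 364 CPM in Young and 508 to 835 CPM in Old, with Old F lowest and 7 of 8 called higher. The part of either cell type in the rise of Slc1a3 and Slc1a4 was not tested.

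In the ALS comparison the changes were larger, and 4 of the 7 members were called: Slc17a6 and Slc1a1 fell, whereas Slc1a3 and Slc1a4 rose. The share of all 14386 genes called was 18.4% higher and 15.5% lower in G93a, against 2 higher and 2 lower of 7. No member had a log2 fold change past 1, which 9.7% of all genes passed with an adjusted p under 0.05. G93a and control libraries did not overlap in 5 members, the 4 called and Slc17a8, and in 50.4% of all 14386 genes tested. With 3 mice against 3, an exact permutation test cannot give a p under 0.1, which each of these 5 reached. In simulated counts with 3 libraries against 3, the test recovered 20% of genes changed by 0.5 on the log2 scale and 95.9% of those changed by 1.5, so small changes would often be missed here.

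**Figure D2:**
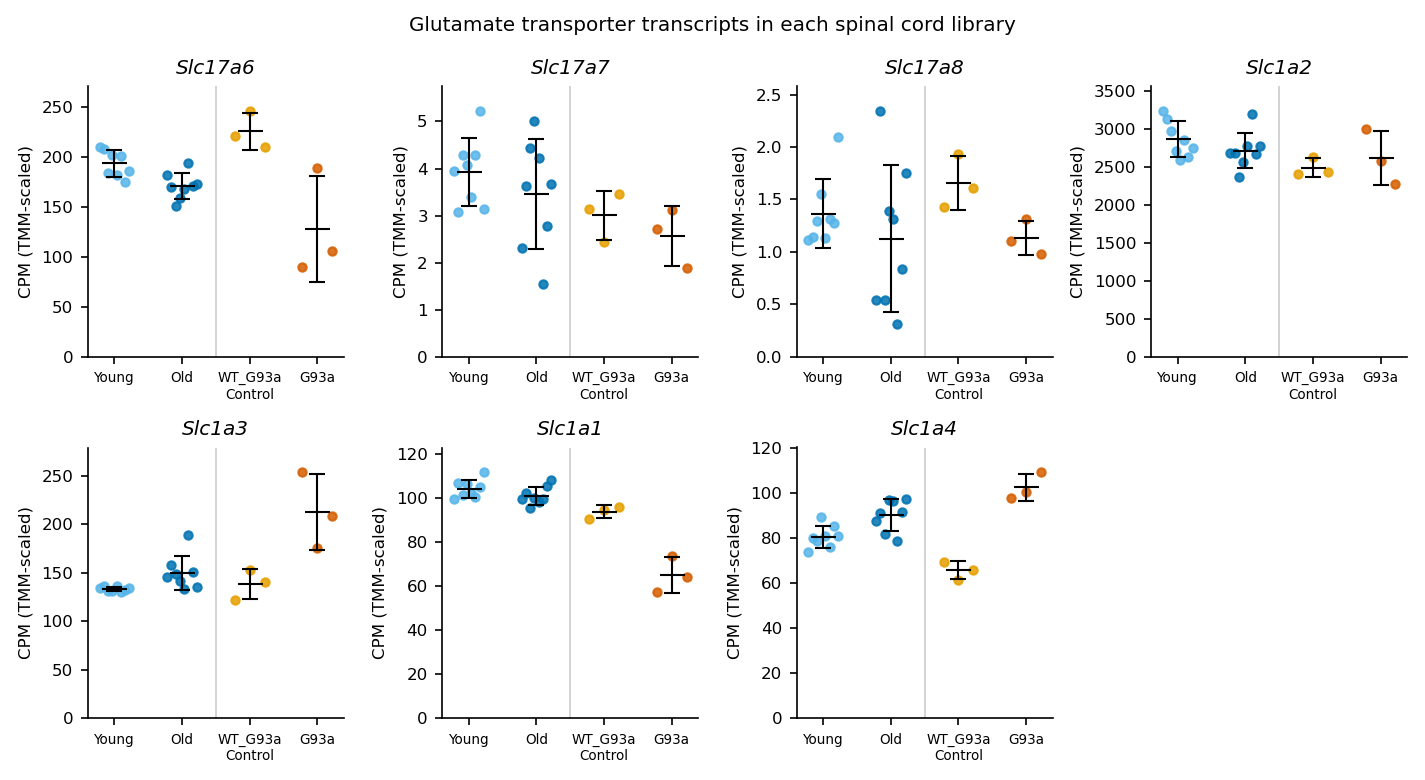
CPM of each transporter gene in every library (points), with the group mean and SD in black. The grey line separates the aging from the ALS experiment, which were scaled separately. In G93a, Slc17a6 (89.7, 189 and 106 CPM) and Slc1a1 lie below their controls and Slc1a3 and Slc1a4 above, while Slc1a2 overlaps.

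Slc17a6 measured 221, 247 and 209.9 CPM in controls A, B and C, and 89.7, 189 and 106 CPM in G93a A, B and C. All 3 G93a libraries were lower than each control, with G93a B much nearer to the controls than the other 2. The mean fell from 226 ± 18.8 to 128 ± 53.2 CPM, a log2 fold change of -0.82 (SE 0.24, 95% interval -1.37 to -0.28, adjusted p = 0.0284). The call depended on single libraries. It was lost without control A (-0.84, adjusted p = 0.0722), control B (-0.76, 0.0957), control C (-0.87, 0.0667), G93a A (-0.61, 0.0558) or G93a C (-0.70, 0.119), and without G93a B the value was -1.21 (adjusted p = 1.26e-05). The direction was the same in every case. Neuron markers moved in step with it. Their sum was 8592 to 9073 CPM in the controls and 3919, 6204 and 4407 CPM in G93a A, B and C, with 9 of 10 called lower. Per 1000 CPM of neuron markers, Slc17a6 was 23.9 to 27.2 in the controls and 22.9, 30.4 and 24.0 in G93a, so the groups overlapped on that scale. The markers of motor neurons, which are cholinergic, summed to 287 to 322 CPM in the controls and 141 to 156 CPM in G93a, and G93a B (143 CPM) did not stand apart in these. Of 8 markers of dorsal excitatory interneurons, a population that uses VGLUT2, none was called in either comparison. Their median log2 fold change was -0.19 in ALS, with 6 of 8 negative, and -0.070 in aging, with 5 of 8 negative. With 3 mice against 3, changes of that size would often be missed. Of 5 inhibitory neuron markers, 4 were called lower in ALS (median -0.51) and 3 in aging (median -0.16), against 15.5% and 12.9% of all genes. What part neuronal content has in the fall of Slc17a6 was not tested.

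Slc17a7 remained low, at 3.13, 2.44 and 3.46 CPM in the controls and 2.71, 3.12 and 1.88 CPM in G93a. The groups overlapped, and the log2 fold change was -0.23 (95% interval -0.89 to 0.43, adjusted p = 0.570). It moved with single libraries too, from -0.38 without G93a B and -0.37 without control B to -0.12 without control C and -0.045 without G93a C. Slc17a8 measured 1.42, 1.94 and 1.61 CPM in the controls and 1.102, 1.31 and 0.985 CPM in G93a. Its groups did not overlap, but with 11 to 23 counts per library the log2 fold change of -0.55 had a 95% interval of -1.28 to 0.17 (adjusted p = 0.214).

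Slc1a2 measured 2416, 2635 and 2432 CPM in the controls and 2999.9, 2580.1 and 2283 CPM in G93a A, B and C. The groups overlapped, with G93a A above every control and G93a C below every one. The log2 fold change was 0.071 (SE 0.12, adjusted p = 0.679), and the 95% interval ran from -12.97% to 26.8% in the level. Without G93a A it was -0.031 (adjusted p = 0.864). Astrocyte markers rose in the same libraries: 6 of 9 were called higher and none lower, and their sum was 4780 to 5556 CPM in the controls and 17085, 10526 and 15280 CPM in G93a A, B and C. Much of that sum was Gfap, with a mean of 1758 CPM in the controls and 9258 CPM in G93a. Per 1000 CPM of the 9 markers, Slc1a2 was 435 to 551 in the controls and 149 to 245 in G93a. The size of that gap depended on which markers were counted, in lists trimmed after their values were seen. Without Gfap, the other 8 markers summed to 3385 to 3452 CPM in the controls and 4416 to 5856 CPM in G93a, and Slc1a2 per 1000 CPM of them was 700.0 to 779 against 471 to 584. Much of the remaining rise was Aqp4, with a mean of 657 CPM in the controls and 1733 CPM in G93a. Without Aqp4 as well, the values for Slc1a2 were 873 to 966 in the controls and 746 to 863 in G93a. That gap was smaller, but every G93a library still lay below every control. Aldoc, the most abundant of these markers in the controls after Gfap, had a log2 fold change of 0.12 and was not called (adjusted p = 0.391). A change of GLT-1 RNA in the whole cord was not shown.

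Slc1a3 measured 122, 153 and 141 CPM in the controls and 254, 175 and 209 CPM in G93a. All 3 G93a libraries were above every control, again with G93a B nearest to them. The mean rose from 139 ± 15.5 to 213 ± 39.3 CPM (log2 fold change 0.62, SE 0.14, 95% interval 0.29 to 0.94, adjusted p = 0.0117). The call was lost without control A, the lowest control (0.53, adjusted p = 0.0529), and held without each of the other 5, with 0.74 without G93a B (adjusted p = 0.000434). Its level relative to astrocyte markers had no fixed direction. Per 1000 CPM of the full list of 9, Slc1a3 was 21.98 to 31.98 in the controls and 13.7 to 16.7 in G93a, which is lower. Without Gfap it was 35.4 to 45.2 against 39.7 to 43.3, inside the control range, and without Gfap and Aqp4 it was 44.6 to 56.05 against 58.6 to 68.2, which is higher. The part of astrocyte content in the rise of Slc1a3 was not tested. The FPKM ratio of Slc1a2 to Slc1a3 accordingly differed between the groups, at 5.99 to 7.02 in the controls and 4.26, 5.24 and 3.91 in G93a A, B and C. In aging the same ratio was 6.76 to 8.23 in Young and 5.62 to 7.49 in Old, with overlap.

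**Figure D3:**
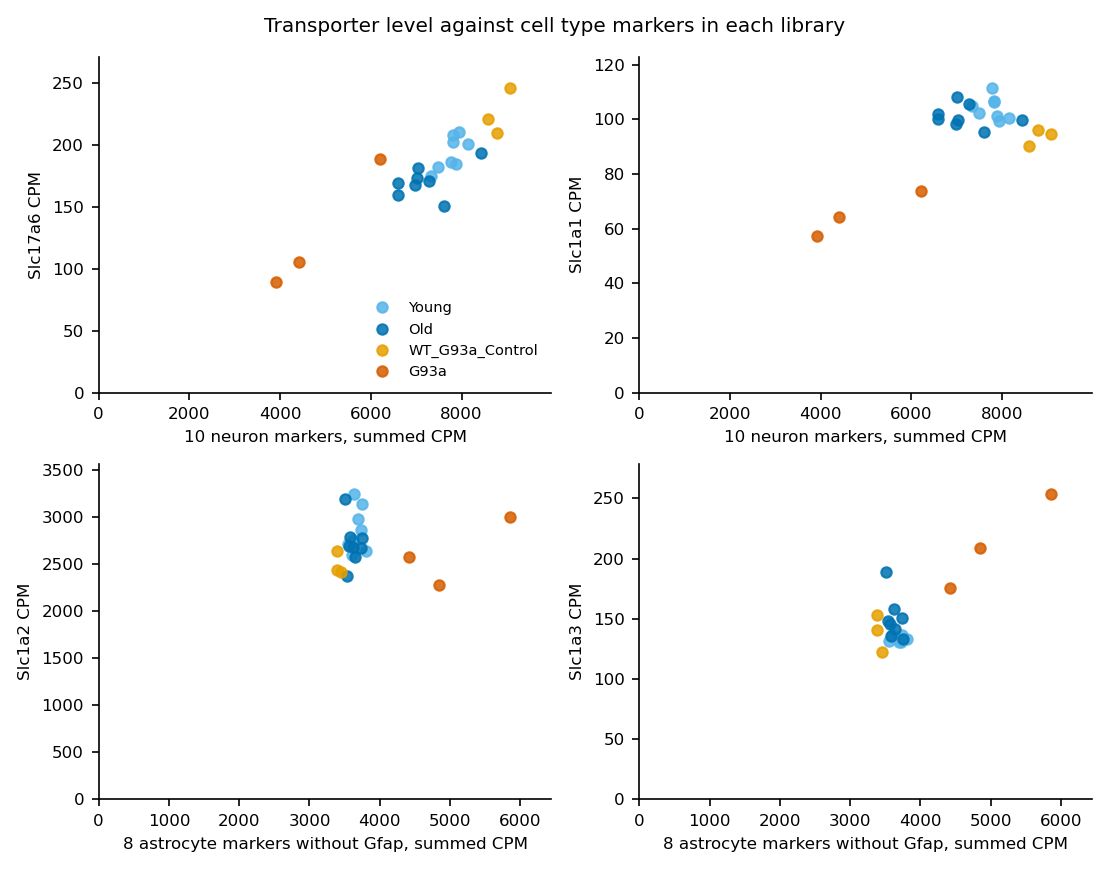
Level of 4 transporters (CPM, vertical axes) against summed CPM of cell type markers (horizontal axes) in each of the 22 libraries, coloured by group. The G93a libraries with the fewest neuron marker counts also have the least Slc17a6 and Slc1a1, and among the G93a libraries Slc1a3 is higher where astrocyte markers are, whereas Slc1a2 in G93a spans 2283 to 2999.9 CPM at raised marker levels.

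Slc1a1 measured 90.4, 94.7 and 96.0 CPM in the controls and 57.3, 73.7 and 64.2 CPM in G93a. The 3 G93a libraries lay well below the narrow control range. The log2 fold change was -0.53 (SE 0.10, 95% interval -0.76 to -0.30, adjusted p = 0.00601), and the adjusted p stayed under 0.05 with any 1 library left out (at most 0.0347), and the value without G93a B was -0.62. Relative to neuron markers the order was the opposite. Per 1000 CPM of those markers, Slc1a1 was 10.4 to 10.9 in the controls and 14.6, 11.9 and 14.6 in G93a, which means that it fell less than the marker sum did. 4430402I18Rik, a gene on the other strand that overlaps Slc1a1, measured 2.89 CPM in the controls and 4.05 CPM in G93a on average and was not called (adjusted p = 0.154). Whether reads were counted by strand is not given in the sources used here.

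Slc1a4 had the lowest adjusted p of the 7. It measured 69.5, 61.5 and 65.9 CPM in the controls and 97.9, 100.5 and 109 CPM in G93a A, B and C. The G93a libraries were close together, and G93a B did not stand apart from them here. The mean rose from 65.6 ± 4.01 to 103 ± 5.94 CPM (log2 fold change 0.64, SE 0.087, 95% interval 0.45 to 0.84, adjusted p = 0.0012). The adjusted p was at most 0.0109 with any 1 library left out, and the value without G93a B was 0.66. The markers of astrocytes rose in the same libraries, as given above, and those of microglia and macrophages summed to 334 to 405 CPM in the controls and 2188, 1235 and 1755 CPM in G93a A, B and C, with 6 of 8 called higher. Their part in the rise of Slc1a4 was not tested.

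The change in ALS and the change in aging come from separate animals with separate controls. The difference between them was therefore tested in 1 fit of the 22 libraries. That fit shares an estimate of the spread across all groups. Its SE for Slc17a6 (0.18), Slc1a3 (0.13) and Slc1a1 (0.087) was below that of the ALS change alone (0.24, 0.14 and 0.10). For Slc1a4 it was above (0.097 against 0.087). The adjusted p-values of the difference may thus be too small where the G93a libraries vary more. Kit and sex also differ between the experiments. The share of all 14502 genes whose change was more positive in ALS than in aging was 11.6%, and 14.2% were more negative, against 2 and 2 of the 7 members. Slc17a6 fell further in ALS (difference in log2 fold change -0.67, SE 0.18, adjusted p = 0.00777), although without G93a A the difference of -0.46 had an adjusted p of 0.0536. Slc1a1 did so as well (-0.51, SE 0.087, adjusted p = 0.000127). Slc1a4 rose further (0.45, SE 0.097, adjusted p = 0.00111). Slc1a3 also rose further (0.42, SE 0.13, adjusted p = 0.0174), but not past the threshold without control A (0.34, adjusted p = 0.0799) or G93a A (0.28, adjusted p = 0.126). For Slc1a2 the difference of 0.12 had a 95% interval of -0.12 to 0.36 (adjusted p = 0.493).

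**Figure D4:**
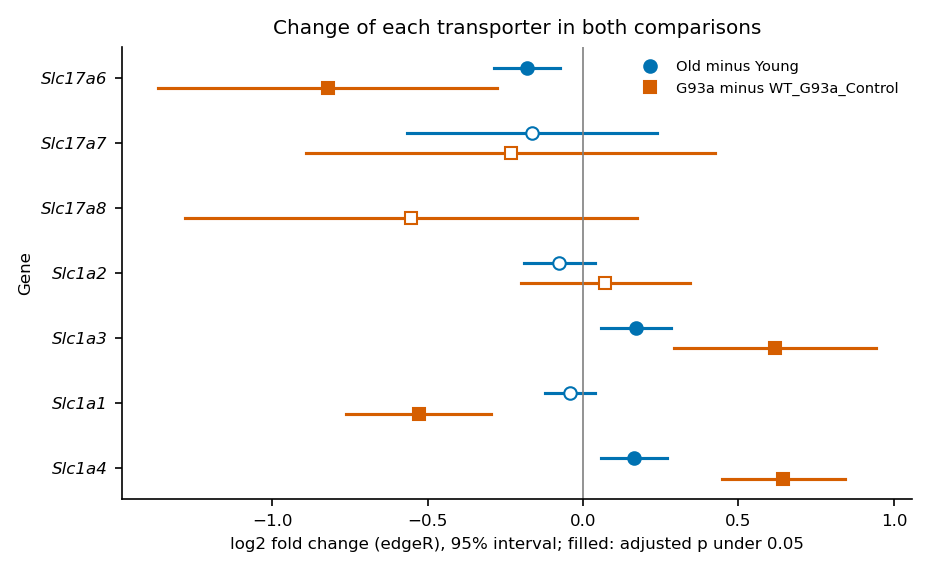
Log2 fold change (horizontal axis) with its 95% interval for each transporter, for Old minus Young (circles) and G93a minus WT_G93a_Control (squares), filled where the adjusted p is under 0.05. Slc17a8 was not tested in aging. Slc17a6, Slc1a3 and Slc1a4 are called with the same sign in both comparisons, Slc1a1 in ALS only, and both intervals of Slc1a2 include 0.

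The counts for related gene lists that follow stand beside the share of all genes called, which was 13.5% higher and 12.9% lower in Old and 18.4% higher and 15.5% lower in G93a. Relatives of the transporters were mostly scarce. Of 9 other SLC1 and SLC17 genes, 4 were tested. None passed in aging. In ALS, Slc1a5, which encodes the neutral amino acid exchanger ASCT2, rose from 3.53 to 15.3 CPM (log2 fold change 2.12, adjusted p = 0.00866). Slc17a9, the vesicular nucleotide transporter, averaged 0.152 CPM in the controls, under the level of 3 counts, and 1.99 CPM in G93a. In ALS it passed the filter on low counts only through the G93a libraries, so its call (adjusted p = 0.00642) is not read as a result. Slc1a6, a glutamate transporter best known from Purkinje cells, averaged 14.1 CPM in the controls and 9.71 CPM in G93a (adjusted p = 0.0773).

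Among 12 measured genes of the glutamate-glutamine cycle, which returns glutamate to neurons as glutamine, 2 were higher and 3 lower in Old, and 5 were lower and none higher in G93a. The median log2 fold change was -0.032 in aging and -0.26 in ALS, while that of all genes tested was -0.0027 and 0.0031. Got1, the cytosolic aspartate aminotransferase, fell in ALS (-0.59, adjusted p = 0.00861), and so did Slc25a22, a mitochondrial glutamate carrier (-0.37, adjusted p = 0.0136). In aging, the glutamine transporters Slc38a2 (-0.28, adjusted p = 0.0042) and Slc38a5 (-0.89, adjusted p = 0.00135) fell. Glul, the glutamine synthetase of astrocytes, is named here after its values were seen. Its log2 fold change was 0.033 in aging (adjusted p = 0.558) and -0.011 in ALS (adjusted p = 0.966).

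Of 5 genes of cystine-glutamate exchange and glutathione synthesis, 1 was higher and 1 lower in Old, and 1 was higher in G93a. Slc7a11, the exchanger subunit that releases glutamate in return for cystine, fell in aging from 15.2 to 10.1 CPM (-0.60, adjusted p = 0.000182). Its value in ALS was -0.21 (adjusted p = 0.278). Slc3a2, the heavy chain that it shares with other transporters, rose in both, by 0.18 in aging (adjusted p = 0.0012) and 0.62 in ALS (adjusted p = 0.0192). Among 8 genes of serine synthesis and D-serine handling, 1 was higher and 2 lower in Old, and 2 were higher and 2 lower in G93a. These bear on Slc1a4, which carries serine. Slc7a10, a serine transporter of astrocytes, fell in aging (-0.25, adjusted p = 0.000638) and by more than 1 on the log2 scale in ALS (-1.14, adjusted p = 0.000762). Dao, which degrades D-serine, fell in ALS (-1.05, adjusted p = 0.00457), and Shmt2, the mitochondrial serine hydroxymethyltransferase, rose in both (0.26 and 0.61, adjusted p = 0.0057 and 0.00622). Srr, which makes D-serine, fell in aging (-0.21, adjusted p = 0.00892).

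The 8 genes that keep the ion gradients for uptake in astrocytes were called in opposite directions: 4 lower and none higher in Old, and 4 higher and none lower in G93a. In aging, the potassium channel gene Kcnj10 (-0.25, adjusted p = 0.00136) and the gap junction gene Gja1 (-0.23, adjusted p = 0.00163) fell. In ALS, Gja1 rose (0.54, adjusted p = 0.0257), as did Aqp4, the water channel of astrocyte endfeet (1.40, adjusted p = 0.000271). Both are also in the astrocyte marker list. Of 9 genes for proteins that bind the plasma-membrane transporters, 2 were higher and 2 lower in Old, and 3 were higher and 3 lower in G93a. Ezr, a membrane-cytoskeleton linker, rose in both (0.60 and 1.81, adjusted p = 2.54e-07 and 0.00221), and so did Ajuba, a LIM protein (0.89 and 1.63, adjusted p = 0.0024 and 0.00939). Slc9a3r1, a PDZ scaffold, rose in ALS (0.70, adjusted p = 0.00584).

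**Figure D5:**
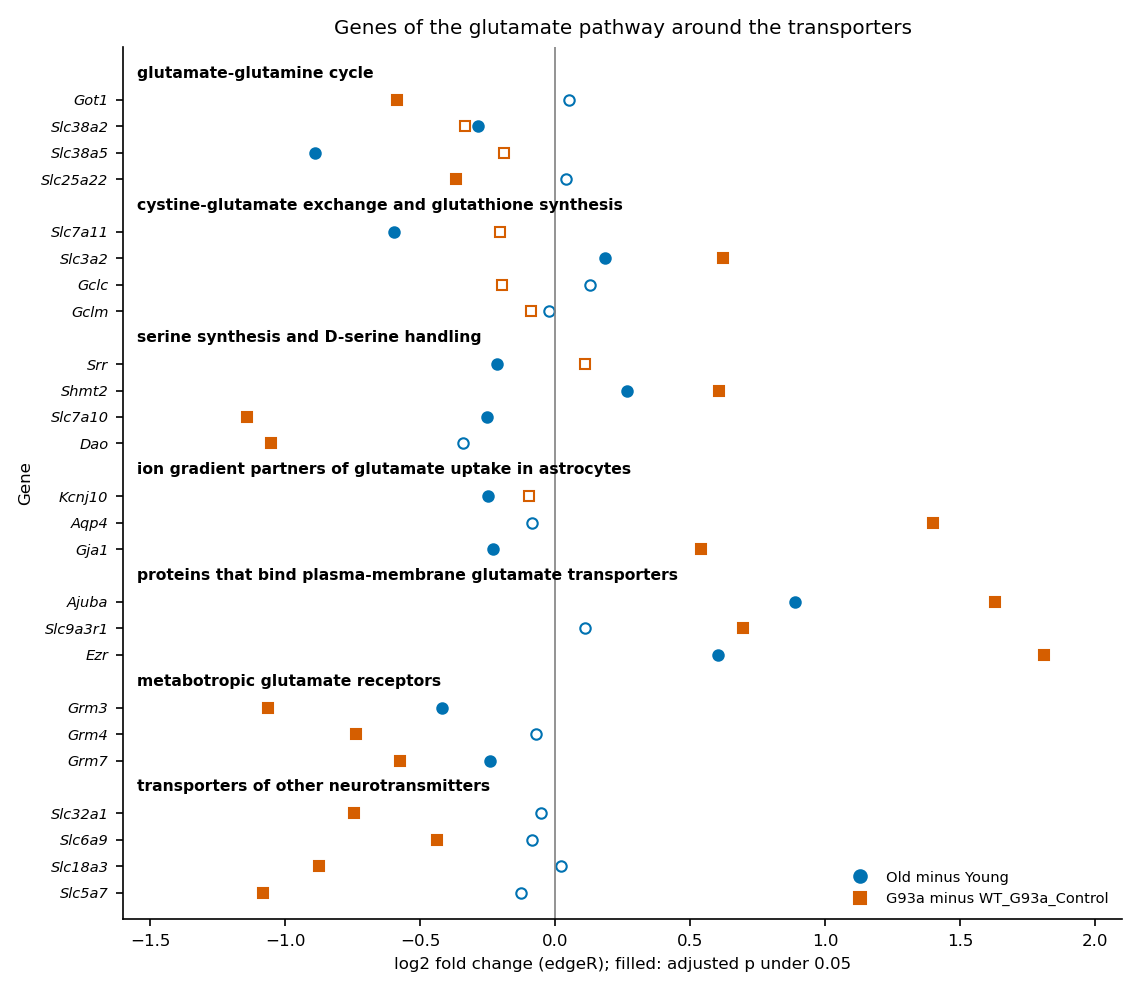
Log2 fold changes of up to 4 genes of each list, those with the lowest adjusted p in aging or ALS, for Old minus Young (circles) and G93a minus WT_G93a_Control (squares), filled where the adjusted p is under 0.05. The 3 metabotropic receptors and the 4 other neurotransmitter transporters shown all fell in ALS, while Aqp4 and Ezr rose by 1.40 and 1.81.

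Metabotropic glutamate receptors, which sense the glutamate that the transporters load into vesicles and clear, were called lower and never higher: 3 of 7 in Old and 5 of 7 in G93a. Grm3, an inhibitory receptor of neurons and astrocytes, fell in both (-0.42 and -1.06, adjusted p = 0.00117 and 0.00841), as did the presynaptic receptor gene Grm7 (-0.24 and -0.58, adjusted p = 0.00209 and 0.0152). Grm4 (-0.74, adjusted p = 0.00165) fell in ALS. Of 9 transporters of other transmitters tested, 1 was called lower in Old and 6 in G93a, and none was called higher. The choline transporter Slc5a7 (-1.08, adjusted p = 0.000344), the vesicular acetylcholine transporter Slc18a3 (-0.87, adjusted p = 0.000417), the vesicular GABA and glycine transporter Slc32a1 (-0.74, adjusted p = 0.0082) and the glycine transporter Slc6a9 (-0.44, adjusted p = 0.00558) fell in ALS. Slc17a6, at -0.82, lay within the range of these 4. Slc5a7 and Slc18a3 are also in the motor neuron marker list, and Slc32a1 is in the inhibitory neuron marker list. The median log2 fold change in ALS was -0.72 for the 7 receptors, -0.74 for the 9 transporters and -0.67 for the 10 neuron markers. The part of neuronal content in these falls was not tested.

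Genes that varied together with Slc1a2 and Slc17a6 were sought over the 16 aging libraries after each group's mean was subtracted. The 5 most like Slc1a2 in log2 CPM were Kif21b (Pearson r = 0.889), Trpm3 (0.885), Lingo2 (0.876), Atp2b2 (0.866) and Lcor (0.865). The 5 most like Slc17a6 were Grm5 (0.889), Tab3 (0.882), Appl1 (0.876), Dpp10 (0.876) and Usp9x (0.874). Slc1a2 and Slc17a6 themselves had r = 0.819, although one is mainly a glial and the other a neuronal gene, and Old F was high in both. Slc17a7 varied the other way, with r = -0.70 against Slc17a6. These correlations are descriptive, over libraries that also differ in depth and composition.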

How the data were processed

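Whole spinal cord RNA was sequenced from 22 mice. The authors aligned reads to mm10 and summarized them by gene with RSEM on Ensembl 88, pooling no replicates. The authors deposited expected counts without normalization between libraries, and log2 values of FPKM plus 1, from which FPKM was recovered. Per the labels, groups carry replicate numbers that the table columns do not, so libraries were assigned to groups only. Symbols and positions came from GENCODE M21 (21842 of 21995 genes matched).

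Expected counts were rounded, and each comparison was tested alone: edgeR 4.0.16 (R 4.3.3) with filterByExpr (minimum count 10, minimum total 15), TMM scaling and the quasi-likelihood test, with p-values adjusted by Benjamini-Hochberg across every gene tested. CPM uses TMM library sizes. A call is an adjusted p under 0.05. Counts simulated with known changes gave 0 calls in the wrong direction in either comparison. Of the calls in these simulated counts, 7.41% in aging and 6.56% in ALS fell on unchanged genes. Alternatives used DESeq2 1.42.0 and limma 3.58.1. Figures used matplotlib 3.10.9. No 2 libraries of a group held equal counts. The members, lists, markers and motifs were chosen with earlier results of these data known. Text named, besides the 7 members and Sod1, up to 4 genes of each list (lowest adjusted p in aging or ALS) and the 5 genes most correlated with Slc1a2 and Slc17a6. Some list genes are not reported here.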

Additional observations from a re-analysis of the deposited data

Results flagged for a closer look

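Slc17a8 in Young H measured 2.09 CPM and stood apart from the other Young libraries, with a gap to the nearest of 0.551 of the whole range of the group. Slc1a3 in Old F measured 189 CPM, with a gap of 0.555 of the range of Old. These were 2 of 14 groups examined, where chance gives about 1 in 20. The value of Young H rested on 16 counts.

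The change in ALS differed from the change in aging, in the test of the difference itself, for Slc17a6 (-0.67 on the log2 scale), Slc1a1 (-0.51), Slc1a3 (0.42) and Slc1a4 (0.45). In all 4 genes the larger change was that of ALS. The shared estimate of the spread in that fit is a limit, as given above.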

How the results depend on the processing

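No paired analysis was possible because the table columns carry no replicate numbers; the replicate block was not run. The alternatives were DESeq2, RLE scaling, no filter, at least 10 counts in every library, 1 fit of all libraries, limma on log2(FPKM + 1), and each library left out in turn. Of the values for single members, 128 of 132 in aging, 77 of 84 in ALS and 58 of 63 for the difference kept direction and side of the threshold.

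With 1 fit of all libraries, members called in aging were 1 higher and 0 lower, with Slc17a6 at -0.18 (adjusted p = 0.177) and Slc1a3 at 0.17 (0.0767). With limma, 0 members were higher in Old (Slc1a3 0.15 and Slc1a4 0.15, adjusted p = 0.0603 and 0.171), and the genes called lower were 960 in aging and 1171 in ALS against 1761 and 2236. With libraries left out, calls in aging kept their number (2 higher, 1 lower). In ALS, members called ranged from 1 to 2 in each direction, and all genes called from 1638 to 3476 higher and 715 to 3172 lower. Over the same settings the log2 fold change ranged from -1.21 to -0.61 for Slc17a6 and from 0.48 to 0.74 for Slc1a3. Slc1a2 changed sign without G93a A (-0.031), within a range of -0.031 to 0.17. For the difference, members called ranged from 1 to 2 in each direction, all genes from 1075 to 2211 more positive and 1306 to 2727 more negative, Slc17a6 from -1.07 to -0.46 and Slc1a3 from 0.28 to 0.53. The difference for Slc17a7 ranged from -0.26 to 0.097 and changed sign without control C (0.025) and without G93a C (0.097). The cause of these shifts was not tested, but fits without a library hold fewer samples. Slc17a8, with 2 to 20 counts per library in aging, was not tested there.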
